A study of Glycine max with 6 samples.

Results

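Transcript signals of nontransgenic soybean (Glycine max) cotyledons of 150 mg were described on their own, as the baseline of a filling seed. The cotyledons are the storage organs of the seed, and the labels name the plants wild-type nontransgenic and, in 1 record, a jack control (Jack is a soybean cultivar). Total RNA of this 1 sample was labelled with a one-cycle kit and hybridised to 2 technical replicate arrays, which are 2 of the 6 arrays of the series. The other arrays hold RNA of 2 transgenic lines with RNA interference against storage proteins and were not used. The labels give neither the age in days nor the number of seeds pooled. With 1 biological sample no test is possible, and the spread given is that between arrays and between probe sets.

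The array carries short-oligonucleotide probe sets, each a group of probes for 1 transcript or several like ones. Of 37593 soybean probe sets, 25923 (69.0%) had a signal above background on both arrays. Background was the 95th percentile of the 23350 probe sets designed for other organisms, which lay at 75.6 on array 1 and 68.4 on array 2. A further 1157 soybean probe sets passed on array 1 alone, 1473 on array 2 alone and 9040 on neither. The detected probe sets were ranked by their mean signal, rank 1 being the brightest, and cut into 3 classes, bright, middle and dim, of 8641 each. A signal depends on how well the probes bind as well as on the transcript, so these ranks order signals and are not an order of molecule numbers. For the same reason the list counts below describe where probe sets lie, and neighbouring ranks are not told apart.

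A legume cotyledon in its filling phase makes storage globulins on the rough endoplasmic reticulum and deposits them in vacuoles, while oil is laid down in oil bodies. Late in development the cells switch to maturation and make proteins that protect them during drying. Soybean embryos are also green while they fill, so their plastids hold a photosynthetic apparatus.

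Detected mean signals ran from 75837 down to 72.7, a 1044-fold span. The lowest was 1098 in the bright class and 339.7 in the middle class. At rank 100 the mean signal was 39499, and the 100 brightest probe sets carried 9.44% of the summed signal of all detected ones. The 1000 brightest carried 42.7%, and 1433 probe sets (5.53% of those detected) carried 50% of it. The 100 brightest thus lay between 75837 and 39499. Whether saturation flattened signals at this end was not tested, so these are shares of signal and not of transcript.

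**Figure D1:**
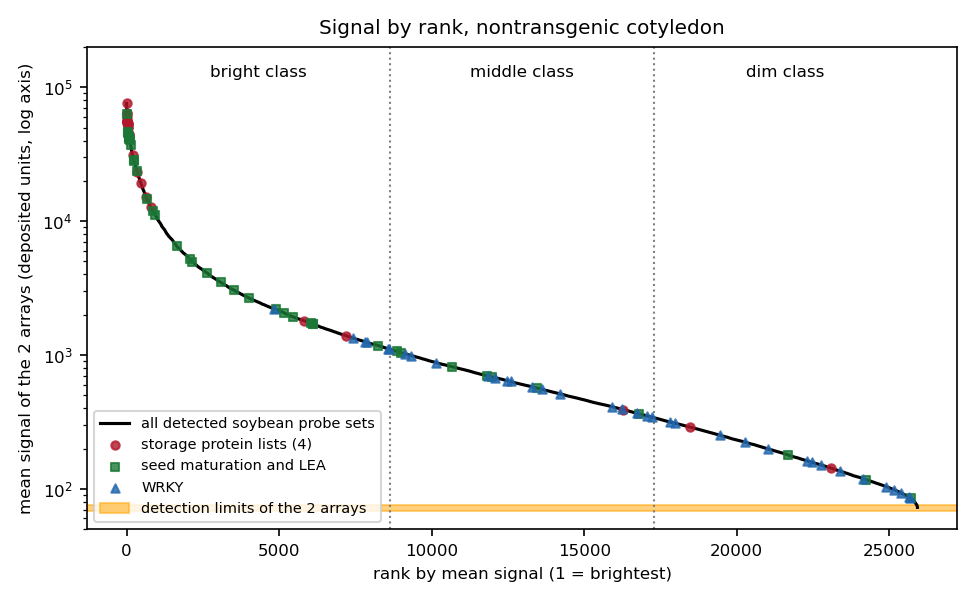
Mean signal of the 2 arrays (log axis) against rank for all 25923 detected soybean probe sets (line), with the probe sets of 4 storage protein lists, the seed maturation and LEA list and the WRKY list marked, dotted lines at the bounds between classes and a band at the detection limits of 75.6 and 68.4. Storage protein probe sets crowd at the left end, while the WRKY probe sets lie at 2221 or below and run into the dim class.

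Gene names were available for a small part of the array. A gene name (a symbol, or a synonym in the RefSeq gene table in place of a numbered symbol) was held by 1880 soybean probe sets of 1126 genes, of which 1245 probe sets of 815 genes were detected. Names are not spread evenly over the ranks: 6.72% of the bright class had one, against 3.75% of the middle class, 3.93% of the dim class and 5.44% of the undetected probe sets. Counts and shares below are therefore to be read beside those of the 1880 named probe sets. Of these 581 (30.9%) were bright, 324 middle, 340 dim and 635 (33.8%) below background. Of the 1880 named probe sets 1168 fell into 37 lists of gene families or pathways. In 12 lists more than 50% of the probe sets were bright, and in 7 lists more than 50% were below background. The lists were chosen with earlier results of these data known, so these 2 counts are a description only. Signals are given for array 1 and then array 2, and a gene with several probe sets is given by its brightest one unless stated otherwise.

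**Figure D2:**
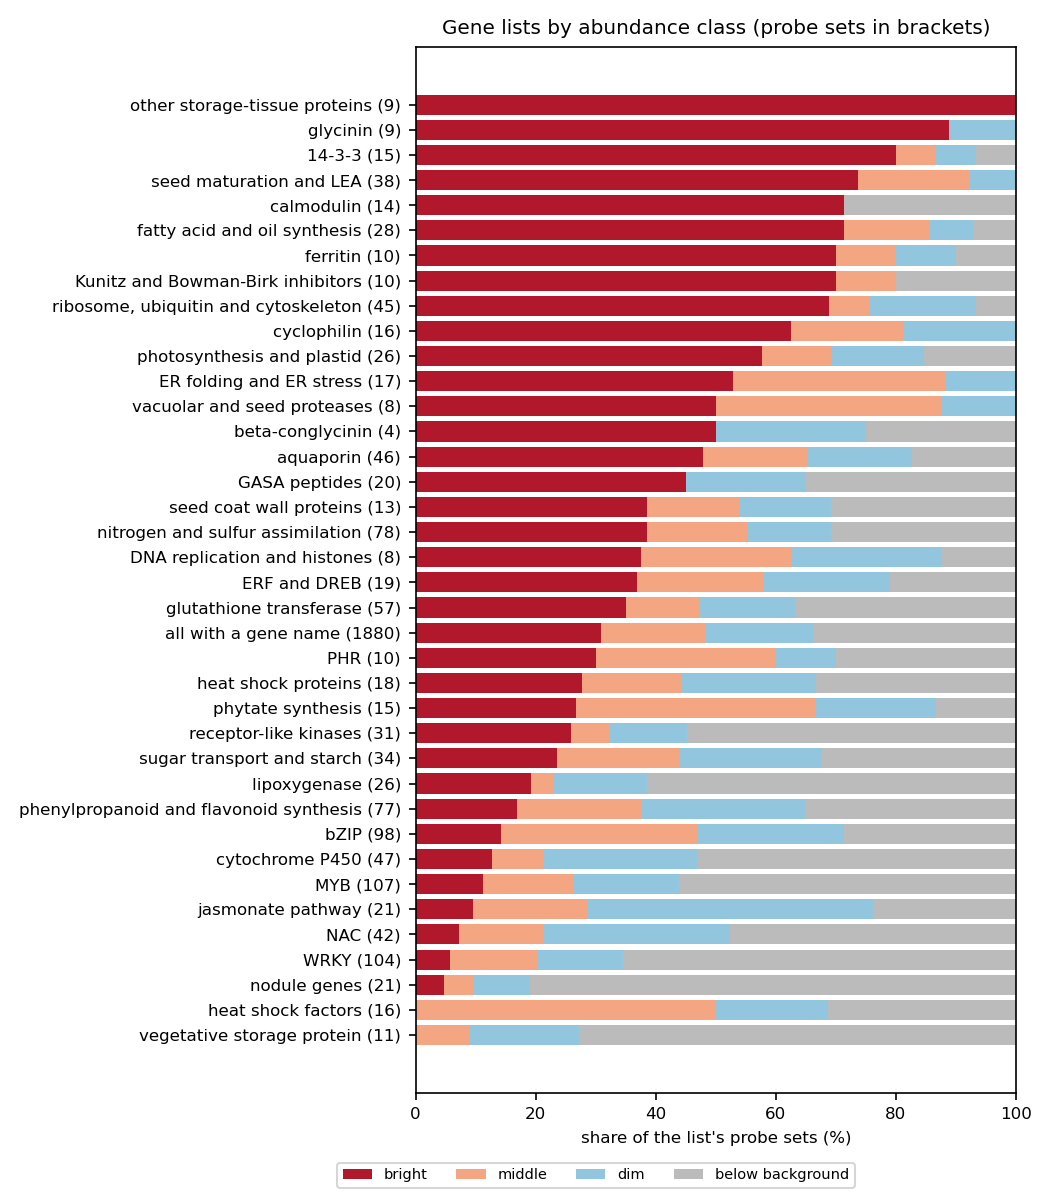
Share of each list's probe sets (percent, number of probe sets in brackets) in the bright, middle and dim class and below background on at least 1 array, with all 1880 named probe sets as reference. The lists of other storage-tissue proteins and glycinin reach 100% and 88.9% bright, and the vegetative storage protein and heat shock factor lists have 0 bright probe sets.

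Storage proteins and the protease inhibitors of the seed were common among the named probe sets of the highest ranks. Of the 100 brightest probe sets 47 had a gene name, and 19 of these belonged to the 4 storage protein lists, which hold 32 probe sets in all. P34, a vacuolar protein of the papain family known as a soybean allergen, stood at rank 1 with signals of 77035 and 74639 on arrays 1 and 2. Its other probe set read 45164 and 44471. The albumin genes lay close together, with GM2S-1, a 2S albumin, at 53794 and 52938 and A1 (albumin-1) at 51708 and 53780. SBP2, of the sucrose-binding proteins, read 41829 and 45803. All 9 probe sets of these other storage-tissue proteins were bright, although SBP65, a biotin-containing seed protein, read only 1727 and 1877. BG7S-1 and BG7S-2 encode basic globulins and were far apart, the former at 38457 and 43621 and the latter at 1356 and 1433, the lowest of the list.

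Glycinin, the legumin-type globulin, had 9 probe sets of 6 genes, of which 8 were bright and 6 among the 100 brightest. GY1 read 69313 and 57375, which at 1.21-fold was the widest gap between arrays among the 100 brightest probe sets. GY4, listed under more than 1 gene record, read 58634 and 60851 at its brightest probe set. GY5 read 53729 and 54838, and GY2 50379 and 51230. These 4 genes overlap within the spread between probe sets, since the other probe set of GY1 read 31590 and 30583. GY3 lay lower, at 17948 and 20903 (rank 465). GY7 was the exception at 264 and 313, in the dim class.

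Beta-conglycinin, the vicilin-type globulin, had its beta subunit gene CG-BETA-1 at 57422 and 53808, with 54088 and 55579 at the other probe set. A probe set shared by CG-1 and CG-3 was at rank 5 with 65868 and 63582, and cannot be given to either gene. CG-1 alone read 157 and 128 at 1 probe set and was below background at another, so its own probe sets and the shared one lay at opposite ends of the range.

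Protease inhibitors of the seed were bright apart from 2 Bowman-Birk genes. D-II, a Bowman-Birk inhibitor isoform, read 64446 and 63982, and BBI read 57721 and 54684. KTI1 and KTI3, Kunitz trypsin inhibitors, read 58607 and 54084, and 53848 and 53464. KTI-2 and KTI-3 followed between 11846 and 24433 on single arrays. Of the list of 10 probe sets, 7 were bright. BBI-2 read 395 and 387, and both probe sets of BBI-1 were below background. Shared Kunitz probe sets, not counted here, differed. That of KTI3, TI-A and TI-B read 45962 and 47650, and that of KTI-1 and P20-1 was below background at 2.59 and 2.79.

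Lipoxygenases, which oxidise polyunsaturated fatty acids, had either very bright or low probe sets. The seed isoform genes LOX3 (65385 and 64839), LOX2 (57672 and 57705) and LOX1.1 (52587 and 51658) were at ranks 4, 15 and 37. The other probe set of LOX3 read 38789.7 and 43246. Next among the genes came LOX1.4 (LOC547835), whose brightest probe set read 1283 and 1289, with no lipoxygenase probe set in between. Of 26 probe sets 16 were below background, among them all those of LOX7, LOX9, LOX10 and LOXB1, and VLXB and VLXC were dim.

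Oil synthesis was bright as a group, with 20 of 28 probe sets in the bright class and a median rank percentile of 86.2 among those detected (100 being the brightest), beside 62.8 over all named detected probe sets. FAD2-1A, the seed oleate desaturase, read 46093 and 49210 at its brightest probe set. SACPD-C, a stearoyl-ACP desaturase, read 32816 and 34980, and FAD2-2 read 11359 and 13861. FAD3B, a linoleate desaturase of the endoplasmic reticulum, read 7075 and 6674. Subunits of acetyl-CoA carboxylase, the first committed step, were bright at all 6 probe sets that name 1 gene, from the brighter one of ACCC-2 (9363 and 9834) to its other one (1989 and 2128), with ACCA-1 (3181 and 2991) nearest the list median. A probe set shared by ACCA-2 and ACCA-3 was in the middle class at 872 and 890.0, whereas another of this pair was bright at 2312 and 1941. Those shared by ACCA-1, ACCA-2 and ACCA-3 were bright as well (2140 and 2367, and 1867 and 2021). The regulator WRI1B read 2269 and 1820 and the acyltransferase gene DGAT1A 1214 and 1261. Desaturases of plastid membranes were lower: FAD8.2 read 620 and 822 at its brightest probe set, FAD6.1 365 and 255, and FAD7-2 170 and 147.

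The jasmonate pathway, which also starts from polyunsaturated fatty acids, had few bright probe sets. Of its 21 probe sets 2 were bright (9.52%, beside 30.9% of all named ones), 4 middle, 10 dim and 5 below background (23.8%, beside 33.8%). The bright ones were the hydroperoxide-metabolising P450 genes CYP74A2 (LOC100810890; 1647 and 1668) and CYP74A1 (1442 and 1446). AOC2 (LOC100800036), an allene oxide cyclase gene, read 729 and 685, AOC3 265 and 199 at the probe set nearest the median, and AOS1 91.7 and 70.8 at the dimmest one detected.

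Seed maturation genes and LEA genes, whose proteins accumulate as seeds dry, were bright as a group. All 38 probe sets of this list were detected, 28 of them in the bright class and 7 among the 100 brightest. PM30 read 63921 and 62310, CP3 (listed also as PM33) 45021 and 45848, LEA5 42488 and 43042, PM34 42324 and 41896, PM37 40307 and 42245, and PM12 40304 and 40263. PM25, nearest the median, read 3377 and 3598. At the other end PGMPM18 (157 and 200), SLE2 (97.0 and 137), an Em-type LEA gene, and a probe set of PM13 (86.4 and 83.5) were dim. The list thus spanned rank percentiles from 0.84 to 99.97.

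Photosynthesis genes were bright in 15 of 26 probe sets (57.7%, beside 30.9% of all named ones). CAB3, which encodes a chlorophyll a/b-binding protein, read 56459 and 57923 (rank 16), and the photosystem I gene PSAD 12797 and 13754. LHCP (LOC547819) read 11853 and 12122, RCA14, a Rubisco activase gene, 9613 and 9352, and the cytochrome b6f gene PETC 8097 and 7763. ELIP, early light-induced, was dim at 194 and 145, and CA1 was below background. By contrast VSPA, a vegetative storage protein of leaves, had 1 middle probe set (441 and 460), 2 dim ones and 5 below background, and VSP27 (LOC547820) was below background at all its probe sets.

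**Figure D3:**
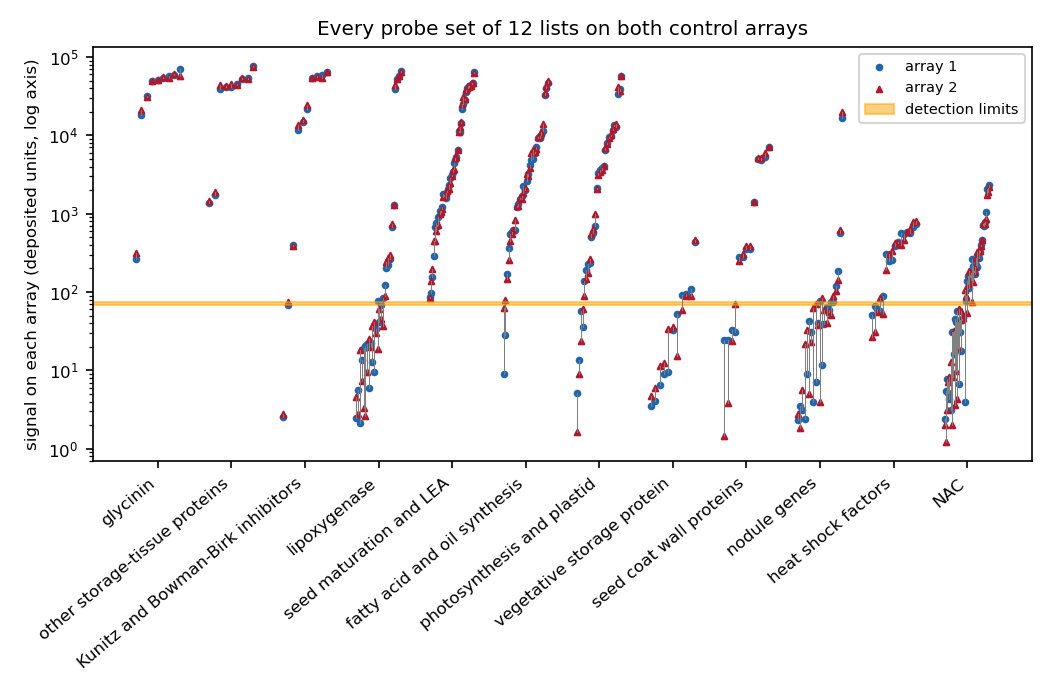
Signal of every probe set of 12 lists on array 1 (circles) and array 2 (triangles), joined by a line, on a log axis with a band at the detection limits of 75.6 and 68.4. Glycinin, other storage-tissue proteins and the inhibitors each sit at high signals apart from a few low members, lipoxygenase splits into LOX3, LOX2 and LOX1.1 at 38789.7 or above and the rest at 1289 or below, and most vegetative storage protein and nodule probe sets lie in or below the band.

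The remaining reserves varied by step. Ferritin, the iron store of plastids, had 7 of 10 probe sets bright, led by SFERH-2 (18854 and 19134) and H-1 (7240 and 6940), while SFERH-4 was dim (281 and 350). In phytate synthesis, which stores phosphorus, MIPS, the inositol phosphate synthase of the entry step, read 25420 and 27231, whereas the later kinases were lower. IPK2 read 1438 and 1449, ITPK3 1284 and 1131 at its brightest probe set, IPK1 699 and 1006 and ITPK4, nearest the median, 667 and 682. MIPS4, a further synthase gene, was dim at 140 and 85.1.

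Sugar and starch genes had 8 of 34 probe sets bright (23.5%), beside 30.9% of all named ones. BMY1 (LOC547931), a beta-amylase, read 54403 and 53674, SS, a sucrose synthase, 24857 and 21712, and GBSSIa, a granule-bound starch synthase, 13847 and 15190. A different gene with the same synonym, BMY1 (LOC547684), read 600 and 795 and lay nearest the median. Sugar carriers were not among the bright genes except SWEET13 (2296 and 2202): SUT1, a sucrose transporter, read 1044 and 1073 in the middle class, SWEET42 624 and 590, and SWEET24 381 and 408. SWEET17, SWEET28, CWINV (cell wall invertase), GOLS (galactinol synthase) and MST1 were below background.

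Water channels were bright in 22 of 46 probe sets (47.8%), beside 30.9% of all named ones. SPCP1, which the gene table lists as a tonoplast aquaporin of the TIP1 group, read 50935 and 50022, the plasma membrane aquaporin PIP1-7 42620 and 40363, and PIP2-6 29378 and 28969. NIP2-2 was below background. Probe sets under the same symbol disagreed widely. Those of SPCP1 had mean signals down to 12.2, with 3 of 8 below background, while the 5 detected ones ran from 50478 to 7921. The symbol SPCP1 is shared by separate gene records, whose probe sets were pooled here. Whether its detected and undetected probe sets belong to different records was not tested. Mean signals of PIP2-6 ran down to 247 and those of PIP1-7 to 112.

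Nitrogen and sulfur assimilation had 30 of 78 probe sets bright but 0 among the 1000 brightest, beside 156 of all 1880 named probe sets and 24 of the 32 of the storage protein lists. Its brightest were OAS-TL1 (LOC547631), of cysteine synthesis, at 7871 and 7987, SHMT, a serine hydroxymethyltransferase, at 7694 and 7084 and AHAS3, of branched-chain amino acid synthesis, at 6941 and 7317. The asparaginase gene ASP1 read 6821 and 6554, and AK-HSDH, of the aspartate pathway, 4348 and 3921. CGS2, which commits carbon to methionine, read 1389 and 1447 at the probe set nearest the median. Genes of nitrate use were at the detection limit: NRT2 read 77.3 and 68.5, NIR 104 and 110 at its brightest probe set, and INR1 and INR2, nitrate reductase genes, were below background.

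Genes that fold and process secreted and vacuolar proteins were all detected. In the endoplasmic reticulum list 9 of 17 probe sets were bright (52.9%, beside 30.9% of all named ones) and 0 below background. PDIL-1 (LOC100170705), a protein disulfide isomerase, read 54611 and 53326, and BIP4, a lumenal chaperone, 17655 and 15089. BIP2 was in the middle class at 463 and 440, and NRP-A read 449 and 499 at its brighter probe set. VPE, the vacuolar processing enzyme that cleaves storage protein precursors in legumes and other plants, read 18597 and 19255, and the aspartic protease gene SOYAP2 5620 and 5955.

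Among heat shock proteins the cytosolic HSP90-1 had 5 bright probe sets of 7, up to 13193 and 14401, whereas the small heat shock proteins were at most in the middle class (HSP23.9, 571 and 701). HSP22.5 and HSP17.5-E were below background. The 16 probe sets of heat shock factors held 0 bright ones, with HSF-01 highest at 749 and 812. Cyclophilins were bright in 10 of 16 probe sets (62.5%, beside 30.9% of all named ones) and all detected. Highest were CYP34 (26116 and 26992) and CYP1 (18092 and 18580).

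Genes of general cell upkeep lay high. The list of ribosomal, ubiquitin and cytoskeletal genes had 31 of 45 probe sets bright, with TCTP (LOC548038) at 53053 and 53973, SUBI-1, a polyubiquitin, at 43586 and 46104, and GAPC1, a glycolytic dehydrogenase, at 39334 and 41242. The ribosomal genes RPS13 and RPS6 read 37164 and 39421, and 36184 and 39706. ACTIN (LOC100798052) was dim at 261 and 324. The 14-3-3 proteins were bright in 12 of 15 probe sets (80.0%, beside 30.9% of all named ones), with GF14D at 22131 and 24093. Calmodulins split cleanly, with all 10 probe sets of SCAM-1, SCAM-2 and SCAM-3 bright and all 4 of SCAM-4 and SCAM-5 below background. GASA peptides, small gibberellin-regulated proteins, also had high and low probe sets, but not divided cleanly by gene. GASA14 read 6776 and 6472 at its brightest probe set and 260 and 192 at a dim one. GASA12 (38012 and 38788), GASA22 (34630 and 35048) and GASA27 (34898 and 34655) were high. Of 20 probe sets 9 were bright (45.0%, beside 30.9% of all named ones), 0 middle, 4 dim and 7 below background.

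Among enzymes of specialised metabolism the lists differed. Phenylpropanoid and flavonoid synthesis had 13 of 77 probe sets bright (16.9%), beside 30.9% of all named ones. IFR2, of the isoflavone reductase family, read 21915 and 21189, PAL2.1, of the entry step, 10466 and 10754, and the isoflavone synthase genes IFS2 and IFS1 8812 and 9774, and 4541 and 4326. In sets picked after their values were seen, the isoflavone genes (IFS, IFR, HIDH and the IF7 transferases) had 8 of 20 probe sets bright and 6 below background. HIDH, the hydroxyisoflavanone dehydratase gene, had none bright (609 and 566 at its brightest probe set), and all probe sets below background were of the IFR group. The 12 probe sets of CHS1 and CHS8, chalcone synthases, had 0 bright and a highest mean signal of 361, and the 7 of anthocyanin and tannin genes (F3H, DFR1, DFR2, ANS2, ANR1, LAR1) had 6 below background.

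Cytochromes P450 were below background in 25 of 47 probe sets (53.2%), beside 33.8% of all named ones, and bright in 6. CYP93E1, which hydroxylates beta-amyrin on the way to soyasaponins, read 29432 and 31761, and CYP72A67 17496 and 18338, and the next gene was CYP71D10 at 2843 and 3110. CYP98A2, of phenylpropanoid synthesis, read between 158 and 373 on single arrays at its 6 probe sets. Glutathione transferases had 20 of 57 probe sets bright (35.1%) and 21 below background (36.8%), beside 30.9% and 33.8% of all named ones. Their median percentile among those detected was 76.5, beside 62.8. Highest were GSTU3 (LOC547576; 14434 and 14905), GSTa (14100 and 13303) and GSTU41 (10930 and 11134).

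Transcription factors occupied the middle and low ranks. Of 396 probe sets in 7 factor lists, 45 (11.4%) were bright and 188 (47.5%) below background, beside 30.9% and 33.8% of all named probe sets, and 0 were among the 1000 brightest. The families differed. WRKY factors had 68 of 104 probe sets below background and 6 bright, with WRKY24 highest at 2331 and 2111, and NAC factors 20 of 42 below and 3 bright, with NAC2 at 2309 and 2206. MYB factors had 60 of 107 below background and 12 bright (MYB112, 7395 and 6526; MYB70, 4031 and 3541).

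The bZIP family was detected more widely than WRKY, MYB and NAC factors, at 71.4% of its probe sets, beside 66.2% of all named ones. Of its 98 probe sets 28 were below background, 32 in the middle class and 14 bright (14.3%, beside 30.9% of all named ones). BZIP53B read 10282 and 10012, BZIP132 9432 and 9194, BZIP38 7949 and 7523, and bZIP53A (LOC780550) 6737 and 6222. In Arabidopsis a bZIP53 factor activates maturation genes. ERF and DREB factors had 7 of 19 bright (36.8%) and 4 below background (21.1%), beside 30.9% and 33.8% of all named ones. EREB read 9308 and 9185 and ERF3 4079 and 4469. PHR factors had 3 of 10 bright and 3 below background, close to the shares of all named ones (PHR13, 3419 and 3175). In these families the share of bright probe sets was thus not as low as in the factor lists pooled. Outside the lists, and chosen after their values were seen, LEC1-A, a regulator of embryo development, read 5665 and 6322 and NF-YA13 6021 and 5859. Floral genes chosen the same way, AG1, SEP1 and MADS28, were below background.

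Receptor-like kinases had 8 of 31 probe sets bright (25.8%) and 17 below background (54.8%), beside 30.9% and 33.8% of all named ones. Their median percentile among those detected was 68.4, beside 62.8 for all named ones. Undetected were, among others, all probe sets of SARK, SIK1, SIK2, NARK and CLV1A. RLK2 was highest at 3807 and 3838. All 7 probe sets of the pathogenesis-related genes PR1-1, PR1-7, PR-10 and PR10, picked after their values were seen, were below background.

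The label was checked against markers. Those of cotyledon storage cells, the globulins and inhibitors above, were bright at 8 of 9 glycinin, 2 of 4 beta-conglycinin and 7 of 10 inhibitor probe sets, with GY7, CG-1, BBI-2 and BBI-1 as the exceptions already given. Nodule genes were below background at 17 of 21 probe sets, including N-21, N-22, N-23, N-26, N-44, N-56 and N-70. UR2, a urate oxidase named among nodulins, was the exception at 16747 and 19822, with 573 and 619 at its other probe set, while N-36A (187 and 144) and ENOD40B (120 and 104) were dim. Seed coat markers were mixed: PRP2, a proline-rich wall protein, read 7016 and 7164, SBPRP 4896 and 5169 and HPS, a hydrophobic seed protein, 4931 and 5102. SCB1 was dim at 278 and 248, and Ep, the seed coat peroxidase, and PRP1 were below background. In all 5 of the 13 probe sets of this seed coat list were bright (38.5%, beside 30.9% of all named ones), 2 middle, 2 dim and 4 below background. Pigment genes served as seed coat markers too. The chalcone synthases had 0 bright and 7 below background of 12 probe sets, and the anthocyanin and tannin genes 0 bright and 6 below of 7. The part of seed coat tissue in the other values was not tested, and in bulk tissue fewer cells of a type and less RNA per cell cannot be told apart. Of the leaf markers given above, CAB3 was bright at 3 of 5 probe sets, while VSPA had 0 bright of 8. Replication and histone genes had 3 of 8 probe sets bright (37.5%, beside 30.9% of all named ones). PCNA (LOC548079) read 2756 and 2653 at its brightest probe set, with a mean signal of 474 at its dimmest. FEN-1 (LOC100808044) was bright too (1786 and 1988). The polymerase gene POLD1 (296 and 242) and, at its brightest probe set, the histone gene H4 (119 and 80.8) were dim.

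Named genes in no list also reached high ranks. MFT, of the family of FT and TFL1 and known from Arabidopsis seeds, read 43098 and 47579, EU3, a urease accessory gene, 42872 and 47175, and MET2 44753 and 42047 at its brightest of 5 probe sets, the dimmest of which had a mean of 283. P89 read 48596 and 50663 at its brightest probe set, with another below background at 205 and 61.9, and P91 42514 and 42180. SODB, an iron superoxide dismutase gene, read 29745 and 31609, and ADH2, an alcohol dehydrogenase gene, 25989 and 28592. Much of the top stays without a name: of the 100 brightest probe sets 25 had no gene in the tables used here, 23 a numbered symbol only and 5 several symbols. The 2 brightest unnamed ones read 69582 and 70030 (rank 2), and 61862 and 59578 (rank 10).

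Genes of many roles met at the middle of the ranking, where values are those of the probe set at that rank, which for some genes is not their brightest. Nearest the middle rank were VTE2-2 (591 and 635), HSF-26 (575 and 641), GER10 (572 and 643), SWEET42, RCABETA (574 and 636), bZIP102 (LOC778122; 615 and 583), LHY, a clock gene (514 and 679), the second probe set of UR2, ALDH2B4 (642 and 546) and PIP2-4 (500 and 685). Transporters, regulators and enzymes thus lay side by side there. At the low end, taken the same way, just above the detection limits, stood NAC3 (77.4 and 88.1), GPPS (96.1 and 69.0), AOS1, BZIP114 (75.7 and 84.7), GASA21 (76.1 and 84.4), MYB56 (91.0 and 69.2), PRX4 (87.3 and 69.3), PUR3 (80.8 and 72.6), SWEET29 (79.1 and 71.0) and NRT2. Just outside were GAD (LOC100796533; 74.9 and 97.7), NOD33 (74.6 and 88.7), RHG4 (110 and 67.4), BZIP9 (91.9 and 67.1) and GASA32 (74.2 and 74.0), each under the limit of at least 1 array.

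Neighbouring genes of 1 family could lie at opposite ends of the ranking. In the gene order of RefSeq assembly Glycine_max_v4.0, used here for order alone, 20 pairs of adjacent protein-coding genes belonged to the same list and had probe sets. LOX2 and LOX1.1 are adjacent and were at ranks 15 and 37, yet the next genes, LOXB1 and LOX7, had highest mean signals of 15.6 and 25.3. GY2 and GY1 are adjacent and were both among the 100 brightest, while the adjacent pair of GY7 and GY3 had mean signals of 288 and 19426. The 3 neighbours GSTU27, GSTU28 and GSTU30 had mean signals of 59.8, 9765 and 342, and GSTU16, GSTU17 and GSTU18 (LOC547583) had 9.78, 211 and 3052. PHR24 and PHR25, in contrast, had 1537 and 1348.

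The 2 arrays agreed closely at the top and less so at the bottom. The median difference between arrays was 1.06-fold in the bright class, 1.11-fold in the middle class and 1.21-fold in the dim class, and the SD of the log2 ratio was 0.16, 0.25 and 0.42. Of the 218 probe sets over 2-fold apart, 207 were dim, 9 middle and 2 bright. Ranked on each array alone, 93 of the 100 brightest probe sets were shared. Of the bright class of array 1, 96.7% was also in that of array 2 (95.6% the other way), against 78.8% (77.9%) of the dim class.

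**Figure D4:**
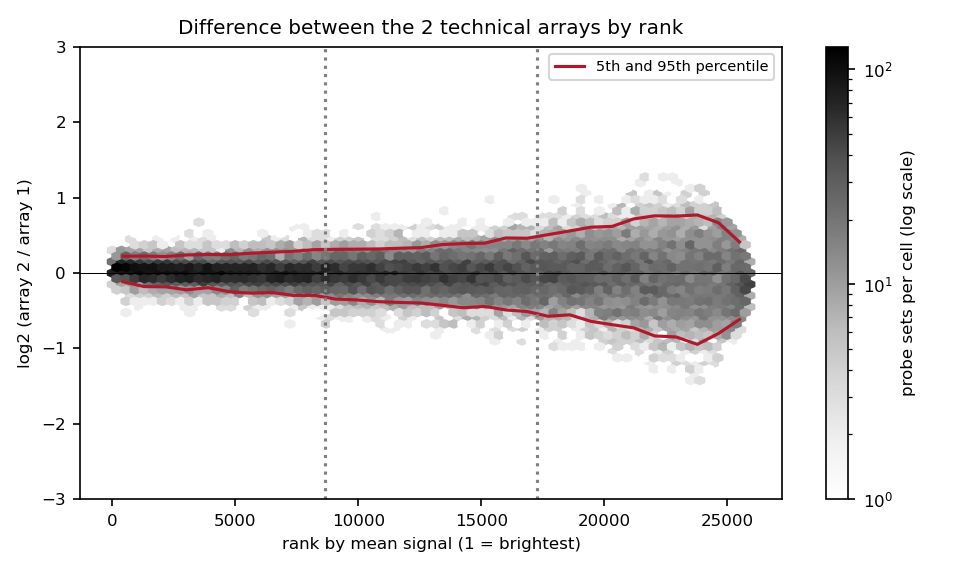
Log2 ratio of array 2 to array 1 for each detected soybean probe set against its rank, shaded by the number of probe sets (log scale), with red lines at the 5th and 95th percentile and dotted lines between classes. The spread widens from an SD of 0.16 in the bright class to 0.42 in the dim class, and narrows at the last ranks, where both arrays had to pass the detection limit.

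Probe sets of 1 gene differed far more than arrays did. Over 281 genes with at least 2 detected probe sets, the brightest and dimmest differed by a median of 2.52-fold, by a median of 19.4 rank percentiles, and 140 genes (49.8%) had all their detected probe sets in 1 class. Such a range can only widen with more probe sets, whereas the arrays are 2. For the 185 genes with exactly 2 detected probe sets, the median log2 range was 0.82. Between the 2 arrays the median log2 difference was 0.15 over all detected probe sets. Among the 281 genes the range passed 4-fold in 97 and 16-fold in 36. Of 444 genes with 2 or more probe sets, 131 had some detected and some not. The widest ranges of rank percentile were those of GF14A (mean signals from 16645 to 99.2), PIP1-7 (41492 to 112), BZIP59 (5349 to 85.7), HDL56 (5368 to 101), GSTL7 (LOC100793025; 4001 to 107), BZIP68 (4653 to 116), DIM1 (8055 to 139) and CHI4A (8819 to 143). The spread between arrays therefore understates how uncertain the class of a gene with 1 probe set is.

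**Figure D5:**
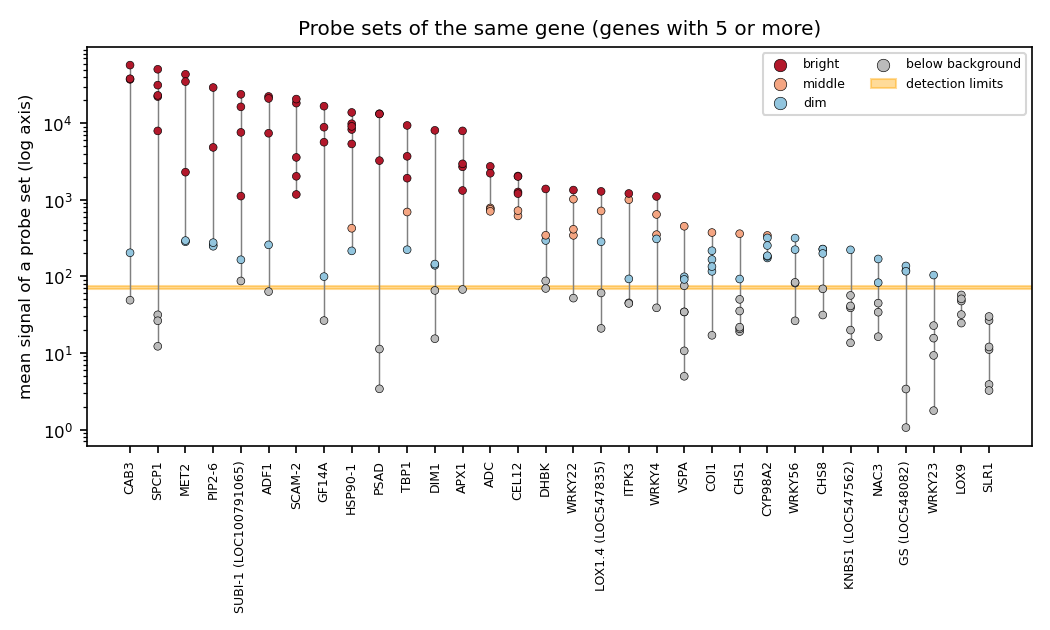
Mean signal (log axis) of each probe set of the 32 named genes with 5 or more probe sets, joined by a line per gene and coloured by class or below background, with a band at the detection limits. Most genes spread over several classes, as CAB3 does from 57191 down to 48.8, while all probe sets of LOX9 are below background.

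Probe set design also followed signal. Probe sets whose identifiers end in _s_at, _x_at or _a_at, marks of probes shared between transcripts, made up 27.2% of the bright class, 12.4% of the middle class, 8.61% of the dim class and 9.34% of those below background. Among the 100 brightest there were 52, including those of GY2, CAB3, TCTP and P34. The signals of such probe sets can sum several transcripts, and their part in the ranks was not tested. Identifiers also carry a mark S1 or A1. In GF14A, 2 probe sets that differ in this mark alone read 9398 and 8296 (S1), and 89.2 and 109 (A1). Other A1 probe sets were bright, as that of FAD2-2 (11359 and 13861). The part of this mark in the ranges within genes was not tested.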

How the data were processed

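Probe set signals of the nontransgenic control, an intensity on a linear scale, were used as the authors deposited them. The program that made the signals is not given in the sources used here. The deposited arrays were already scaled: leaving out the lowest and highest 2% of probe sets, the mean was 500.1 on both. No further scaling was done, and the number of arrays limits the precision. Array medians over all probe sets were 62.1 and 57.8.

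Gene names came from the platform annotation of 9047 soybean probe sets, with symbols refreshed by gene ID from RefSeq's table for assembly Glycine_max_v4.0 (9000 matched). Probe sets with several symbols (366) named no gene. Gene records that share a symbol were pooled under that symbol. The members and lists were chosen with earlier results of these data known, and list members were assigned from symbols. Named were the 30 brightest genes, the brightest, middle and dimmest genes of lists, genes at the middle rank and at the detection limit, and those with the widest range between probe sets; of the list genes a part is printed.

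Ranking was done in Python 3.11.15 (pandas 2.3.3) and tested on simulated data. No comparison with other samples and no test was made. Alternatives were other background percentiles and sets, single arrays, ranking by mean rank, 1 probe set per gene, shared probe sets, other bounds, quantile normalization and median centring. Promoter and protein features were not analysed here.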

Additional observations from a re-analysis of the deposited data

How the results depend on the processing

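The number of detected soybean probe sets was 25923 and lay between 23863 (99th percentile of background) and 28553 (either array) over the alternatives; it was 27396 without replicate 1 and 27080 without replicate 2. Lists with more than 50% of their probe sets bright numbered 12, and 12 to 13 without either replicate, with other backgrounds, with mean ranks or with shared probe sets counted. They numbered 7 with the dimmest detected probe set per gene and 5 with the bright class narrowed to the top 10%, where fewer probe sets count as bright by construction. With 1 probe set per gene, the brightest, the share of bright members moved by over 1.5 times in 6 of 37 lists (lipoxygenase, jasmonate pathway, heat shock proteins, bZIP, MYB and WRKY). With the dimmest it did so in 5, with the top and bottom 10% as bounds in 19, and with other backgrounds, single arrays or mean ranks in 0. The SD of the log2 ratio between arrays was 0.298, and 0.268 to 0.298 otherwise. The median log2 range between probe sets of a gene was 1.33 (281 genes), and 1.64 (153 genes) without probe sets ending in _s_at or _x_at. No paired analysis was possible because no groups were compared. Sequence features by class were not run, since sequence tables were not used here. Dim ranks are limited by signal over background.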

Other observations

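Some probe sets designed for other organisms were bright in this soybean RNA. Of 15820 probe sets with the prefix PsAffx, 10 had a signal above 1000 on both arrays, with a highest mean of 31266, and of 7530 with the prefix HgAffx 1 did, at a mean of 1830. The source of these signals was not tested.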
